A study of Mus musculus with 11 samples.

Results

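Ccno, Mcidas and 8 other genes of the multiciliation programme (Dynlrb2, Efcab1, Rsph1, Mlf1, Rfx2, Plk4, Foxj1 and Drc1) were followed in sorted basal progenitors of the mouse cortex at E16 and E13. The members were taken as all probes of the raw intensity table whose platform symbol was one of these 10 names, which gave 19 probes for 10 of the 19057 genes with a named probe. A probe entered the tests when it was detected on at least 5 arrays, and 12 of the 19 probes and all 10 genes met this, among 10568 genes tested. The set was selected on E16 minus E13 differences on these same arrays, beside its known role in multiciliation, so the differences of the 10 genes between the stages are given as a description, with standard errors (SE) and without a test.

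The study profiled basal progenitors (BPs), the neurogenic progenitors that divide away from the ventricle, sorted by FACS from embryonic brain cortex at 2 stages of neurogenesis. There were 5 arrays of E16 embryos and 6 arrays of E13 embryos, each a separate cortex, and the cortices of each stage came from 3 litters. All 11 raw columns carry the suffix WT, and no allele, transgene or agent is named for either stage. Neither the marker used for sorting nor the litter of a given embryo is stated in the labels.

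Cells with many motile cilia leave the cell cycle and then build basal bodies in large numbers. Mcidas (multicilin), a coiled-coil relative of geminin, activates this programme together with E2f4 or E2f5, and Ccno, a cyclin-like protein, acts downstream of it in the mass production of centrioles. Rfx2 and Foxj1 are transcription factors that switch on genes of the motile axoneme, while most cells of the embryonic cortex carry a single primary cilium. In the brain, multiciliated cells are known as ependymal cells and, with tufts of cilia, as choroid plexus epithelium.

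Because RFX factors read the promoters of ciliary genes, the start regions of the members were searched for the letters GTTGCC. These are one arm of the longer X-box that RFX factors bind, not the whole of it, and are called the RFX arm below. RefSeq promoter windows of build GRCm38.p6, from 250 bases before to 50 bases after a start, were matched for 7 of the 10 genes. The RFX arm was looked for on both strands. It was present in 6 of these 7 windows (Ccno, Mcidas, Rfx2, Mlf1, Dynlrb2 and Drc1), and in 4111 of all 32851 windows (12.5%). Plk4 was the one without the letters. The 250 bases before the start of Ccno (chr13:112987552-112987801, plus strand) are shown because Ccno had the largest stage difference of the 10 genes, with the RFX arm in capitals.
Ccno: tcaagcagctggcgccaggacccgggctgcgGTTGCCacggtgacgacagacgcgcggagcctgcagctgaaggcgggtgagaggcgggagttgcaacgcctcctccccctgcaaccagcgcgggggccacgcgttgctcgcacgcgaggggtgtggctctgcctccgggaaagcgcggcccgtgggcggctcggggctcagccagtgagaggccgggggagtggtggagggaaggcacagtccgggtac

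In the other 5 windows the RFX arm lay between 11 and 195 bases before the start of the window, counted from its first base, against 219 bases in Ccno. For Mcidas and Drc1 this start lies inside the annotated gene, which begins at 112993581 and 30281335, respectively. Their RFX arms therefore lie within the annotated genes and not before them. The surrounding bases are shown so that the sites can be compared, 5′ to 3′ along the gene, with the RFX arm in capitals (as GGCAAC where it lies on the other strand). The regions are chr13:112993661-112993690 for Mcidas, chr17:56831107-56831136 (minus strand) for Rfx2, chr3:67373980-67374009 for Mlf1, chr8:116504952-116504981 for Dynlrb2 and chr5:30281370-30281392 for Drc1.
Mcidas: gggggaagccagGTTGCCaggttggttaac
Rfx2: agcttggtaaccGTTGCCgggcgcaacgcc
Mlf1: gtgtttacagagGTTGCCatagcagccgag
Dynlrb2: acttcctgcctgGTTGCCtagcaacggggg
Drc1: ctgctttcccttGGCAACggctt

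A match of 6 letters is a description of the window and not a measured binding site. Counted per gene, 15.1% of the 8572 tested genes with a window held the RFX arm, and 16.3% of the 1199 that passed the test as lower at E16 did. The forkhead letters GTAAACA were in 1 of the 7 windows (Mlf1) and in 3.65% of all windows. The E2F letters TTNNCGC were in 4 of the 7 (Plk4, Mlf1, Dynlrb2 and Mcidas) and in 20.2% of all windows. No RFX arm of a member overlapped a forkhead or E2F match.

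Ccno and Mcidas are neighbours on chromosome 13, with Ccno at 112987802 to 112990778 and Mcidas at 112993581 to 113000394 (GRCm38.p6). The gap between them is 2802 bases and holds no annotated gene. On one side lie Dhx29 and Mtrex, an RNA helicase of translation initiation and the helicase of the nuclear exosome, with the pseudogene Gm8795. On the other side lie Cdc20b and the microRNAs Mir449c and Mir449b. Mtrex differed by -0.04 between the stages (SE 0.06, limma adjusted p = 0.673) and Dhx29 by -0.05 (SE 0.14, limma adjusted p = 0.848), and Cdc20b was detected on no array. Gm8795, Mir449c and Mir449b were not analysed here.

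Across the 11 arrays, between 43.6% and 45.5% of the 45281 probes were detected, a detection p-value under 0.05 being the call used throughout. Array-to-array correlations were 0.979 to 0.991 among E16 arrays, 0.982 to 0.994 among E13 arrays and 0.955 to 0.975 between the stages. The summed level of the 7 basal progenitor markers ranged from 18380 to 24390 on E16 arrays and from 25560 to 32690 on E13 arrays. Between 5 and 6 of these markers were detected on each E16 array, and 6 on each E13 array. Of 6 tested, 5 were lower at E16 (limma adjusted p under 0.05, beside 14.1% of all tested genes), among them Eomes (-0.75). Insm1 was higher, by 0.38 (limma adjusted p = 0.00305). All values below are background-corrected, quantile-normalized log2 intensities unless said otherwise, a scale that compresses differences of dim probes. Because each array measured RNA of a whole sorted population, fewer cells that express a gene and less RNA per cell cannot be told apart.

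For 9 of the 10 genes every E16 array lay below every E13 array, beside 8.8% of all tested genes, and for Foxj1 the stages overlapped. The choice of genes on this contrast fixes that count, so it is given as a description only. All 10 genes were detected on all 6 E13 arrays. Mcidas, Dynlrb2, Efcab1 and Rsph1 were detected on no E16 array, beside 0.435% of tested genes with that pattern. This pattern is also favoured by the choice of genes on this contrast, so it is given as a description and not as an enrichment. Mlf1, Rfx2 and Plk4 were detected on all 5 E16 arrays. The median difference of the 10 genes was -1.39, and that of all tested genes was -0.0054.

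**Figure D1:**
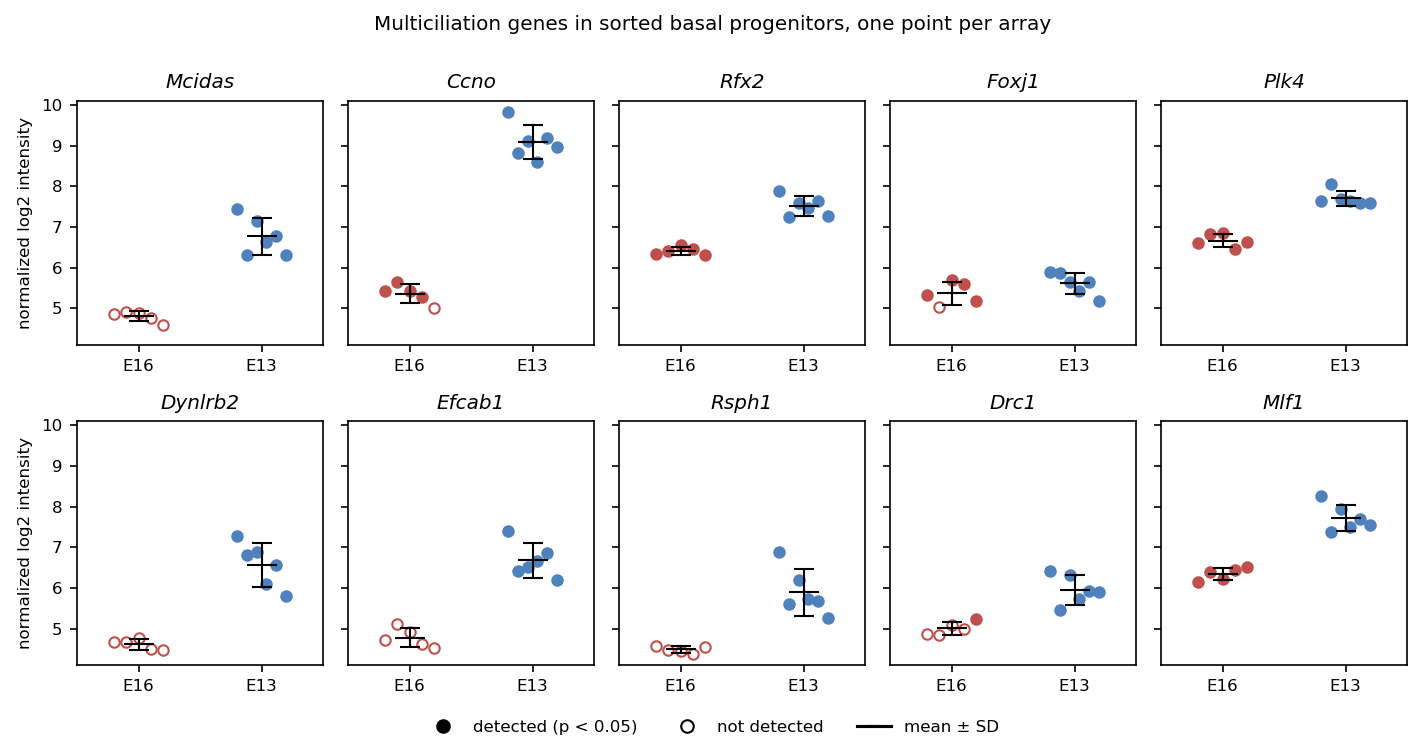
Normalized log2 intensity (y axis) of the main probe of each of the 10 genes on the 5 E16 and 6 E13 arrays (x axis), with 1 point per array, filled where the probe was detected, and bars for mean ± SD. The stages are separate for 9 genes and overlap for Foxj1, and Mcidas, Dynlrb2, Efcab1 and Rsph1 have no filled point at E16.

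Mcidas, an activator of the programme, read 4.85, 4.91, 4.89, 4.77 and 4.60 on the E16 arrays, against a lowest value of 6.31, a median of 6.70 and a highest of 7.45 on the E13 arrays. As deposited, its intensities were 1.15 to 12.7 at E16, none of them detected, against 59.0 to 169 at E13. The highest E13 values came from replicates 1 and 3 (7.45 and 7.16), and the stages did not overlap. The difference was -1.97 (SE 0.19), with means of 4.80 ± 0.13 at E16 (SD, n = 5) and 6.78 ± 0.46 at E13 (SD, n = 6). Since Mcidas was detected on no E16 array, its level there is only bounded, and it was at least 3.08-fold lower at E16. The bound sets the E13 mean against the E16 mean of the higher of the dimmest detected signal and the probe's own value on each array. A second Mcidas probe was detected on 0 of 5 E16 arrays and 2 of 6 E13 arrays and differed by -0.30.

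Ccno read 5.44, 5.64, 5.44, 5.27 and 5.01 on the E16 arrays, against a lowest value of 8.59, a median of 9.05 and a highest of 9.83 on the E13 arrays. It was detected on 4 of 5 E16 arrays, with replicate 5 below the limit, and on 6 of 6 E13 arrays. In deposited intensities these were 12.98 to 34.58 at E16, against 399.7 to 970.4 at E13. The gap between the lowest E13 array and the highest E16 array was wider than the spread within either stage. The difference was -3.73 (SE 0.19), or 13.3-fold lower at E16 on this offset scale, and the means were 5.36 ± 0.23 at E16 (SD, n = 5) and 9.09 ± 0.42 at E13 (SD, n = 6). Counting Ccno itself, 4 of the 10568 tested genes fell by at least this much. Ccno was measured by a single probe. Its E16 levels were near the detection limit, where the scale compresses differences, so the fold depends on the background correction and offset.

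Rfx2, a winged-helix factor of ciliary promoters, read 6.34, 6.40, 6.55, 6.46 and 6.32 at E16, against 7.24, 7.52 and 7.88 as lowest, median and highest at E13. It was detected on every array, and its E16 arrays were close together and all below the E13 arrays. The difference was -1.10 (SE 0.13). A second Rfx2 probe was detected on no array.

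Foxj1, the forkhead factor of motile ciliogenesis, read 5.33, 5.03, 5.71, 5.59 and 5.19 at E16, against 5.19, 5.65 and 5.90 as lowest, median and highest at E13. It was detected on 4 of 5 E16 arrays, with replicate 2 below the limit, and on 6 of 6 E13 arrays. The stages overlapped, and the difference of -0.24 had an SE of 0.16. Its levels were near the detection limit at both stages.

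Plk4, the kinase that starts centriole duplication and that dividing cells use in every cycle, read 6.60, 6.82, 6.85, 6.45 and 6.63 at E16, against 7.60, 7.65 and 8.06 as lowest, median and highest at E13. E13 replicate 2 stood above the other 5 E13 arrays, which lay within 7.60 to 7.68. Plk4 was detected on every array and differed by -1.04 (SE 0.12), and its other 2 probes were detected on no array.

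Dynlrb2, a roadblock-type dynein light chain, read 4.67, 4.68, 4.77, 4.49 and 4.47 at E16, against 5.81, 6.69 and 7.27 as lowest, median and highest at E13. Its difference was -1.96 (SE 0.21), and it was at least 2.68-fold lower at E16, where no array detected it. The close relative Dynlrb1, which is widely expressed, ranged from 12.19 to 12.56 at E16 and from 12.23 to 12.60 at E13 and differed by -0.04 (SE 0.08, limma adjusted p = 0.746).

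Efcab1, a calcium-binding EF-hand protein linked to outer dynein arms, read 4.73, 5.11, 4.92, 4.63 and 4.52 at E16, against 6.20, 6.59 and 7.41 as lowest, median and highest at E13. The difference was -1.90 (SE 0.19), at least 2.88-fold lower at E16. The other 3 Efcab1 probes were detected on no array of either stage, so this value rests on 1 of 4 probes.

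Rsph1, a component of the radial spoke head, read 4.57, 4.47, 4.46, 4.38 and 4.56 at E16, against 5.26, 5.70 and 6.89 as lowest, median and highest at E13. The highest E13 value came from replicate 1, well above the next array at 6.20. The difference was -1.41 (SE 0.22), at least 1.67-fold lower at E16.

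Drc1, a subunit of the nexin-dynein regulatory complex, read 4.86, 4.84, 5.10, 4.99 and 5.24 at E16, against 5.45, 5.91 and 6.42 as lowest, median and highest at E13. Only replicate 5 detected it at E16, and the difference was -0.95 (SE 0.17). The second Drc1 probe, detected on 1 of 5 E16 arrays and 5 of 6 E13 arrays, differed by -0.27, and its stages overlapped.

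Mlf1, first known as a partner in a leukaemia fusion gene, read 6.15, 6.40, 6.22, 6.44 and 6.51 at E16, against 7.37, 7.62 and 8.26 as lowest, median and highest at E13. It was detected on every array and differed by -1.38 (SE 0.15). Its second probe was detected on 0 of 5 E16 and 6 of 6 E13 arrays, differed by -1.02 and was at least 1.50-fold lower at E16. Both Mlf1 probes therefore separated the stages.

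Within E13, replicate 1 held the highest value of 9 of the 10 genes, and the exception was Plk4, highest on replicate 2. Replicates 2 and 6 held the lowest value of 4 genes each. Within E16, no array stood at the top for more than 4 genes, and replicate 5 held the lowest value of 5 genes. Over the 6 E13 arrays, 38 of the 45 pairs of members had a Pearson r above 0, the median r was 0.73, and 15 pairs exceeded 0.8. No matching share over all tested genes stands beside these counts, so they are not read as particular to the 10 genes. None of the 45 pairs passed the threshold after Benjamini-Hochberg adjustment over all pairs in a two-sided exact permutation test (lowest adjusted p = 0.0625 for Pearson's r and 0.125 for Spearman's rho), and 16 pairs had an unadjusted p under 0.05 for Pearson's r. With 720 pairings the smallest p that a pair can have is 0.00139.

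All 36 pairs without Plk4 had an r above 0, with a median of 0.788, whereas the 9 pairs with Plk4 had a median of -0.296 and a range of -0.616 to 0.507. The highest r, 0.963, belonged to Mcidas and Mlf1 (rho = 0.943, exact permutation p = 0.00417 for r and 0.0167 for rho, adjusted p = 0.0625 for r), and it was 0.76 without the 2 arrays farthest from the Mcidas median. Ccno and Mcidas correlated at 0.791 (rho = 0.771, exact permutation p = 0.0514 for r and 0.103 for rho, adjusted p = 0.135 and 0.272), and at 0.784 without the 2 farthest arrays. Much of the common variation came with 1 array. Without E13 replicate 1 the median over the 45 pairs was 0.433 on 5 arrays, and r between Ccno and Mcidas was 0.479. The sign changed little, since 37 of the 38 pairs above 0 stayed above 0 without replicate 1. Without the 2 farthest arrays of each pair the median was 0.494. Of the 38 pairs above 0 on all 6 arrays, 31 were still above 0 and 7 were not, and 3 pairs that had not been above 0 were, each of them with Plk4. No correlation is given within E16, since its 5 arrays fall short of the minimum of 6 set for a correlation and 4 of the genes were detected on none of them. The values above on fewer E13 arrays serve only to show what the 6-array values rest on.

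**Figure D2:**
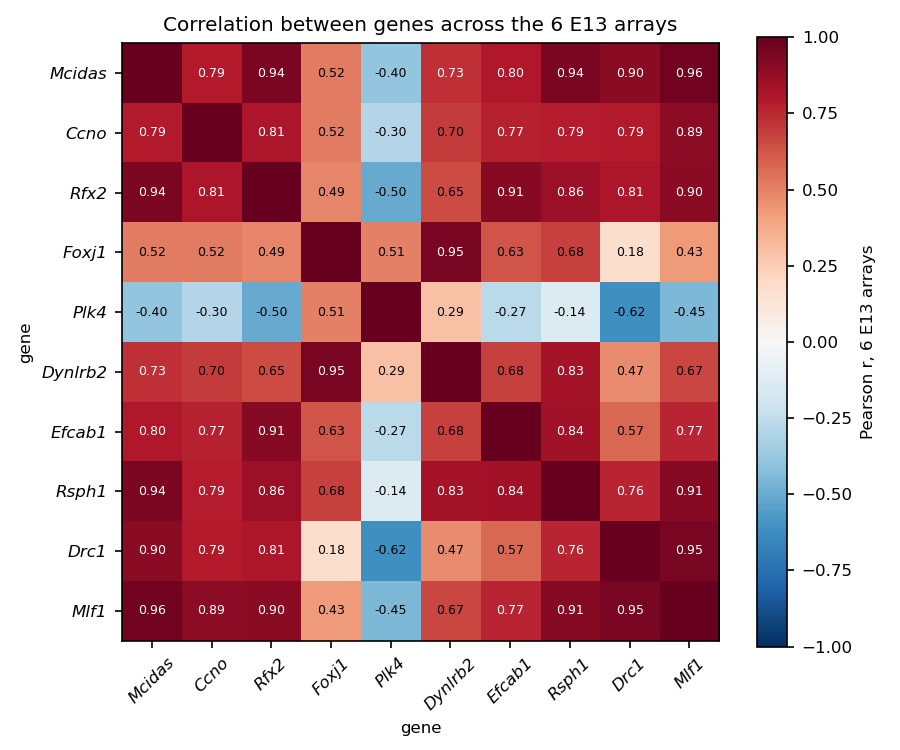
Pearson r between each pair of the 10 genes over the 6 E13 arrays, with genes on both axes and colour running from -1 to 1. Plk4 is the one gene with mostly negative values, and the pairs without Plk4 all lie above 0.

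Deviations of each array from its stage mean were also compared over all 11 arrays, as a description that uses no difference between the stages. The 5 genes most like Mcidas among 10567 others were Gbx2 (r = 0.937), Wnt8b (0.93), Gng8 (0.925), Dbx1 (0.916) and Camk2a (0.906). Without E13 replicate 1 their r lay between 0.843 and 0.892. Mcidas, Gbx2, Wnt8b and Dbx1 were detected on no E16 array, so their likeness rests mainly on the E13 arrays. Gbx2 and Dbx1 are homeobox factors, Wnt8b is a Wnt ligand known from the cortical hem and hippocampal primordium, Gng8 is a G protein gamma subunit and Camk2a a neuronal kinase. Rfx2 and Rsph1 ranked 7 and 10 in likeness to Mcidas, and Ccno ranked 75.

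For Ccno the 5 most alike were Dnaaf2 (r = 0.916), Pdpn (0.895), Ppp1r17 (0.882), Plk3 (0.859) and Gphn (0.858), and without E13 replicate 1 these were between 0.66 and 0.828. Dnaaf2 assembles dynein arms in the cytoplasm, yet its own stage difference was -0.12 (SE 0.10, limma adjusted p = 0.434). Pdpn is a membrane glycoprotein, Ppp1r17 a phosphatase inhibitor, Plk3 a polo-like kinase and Gphn the scaffold gephyrin. Efcab1 ranked 27 and Mcidas 36 in likeness to Ccno, while Plk4 ranked 5956.

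**Figure D3:**
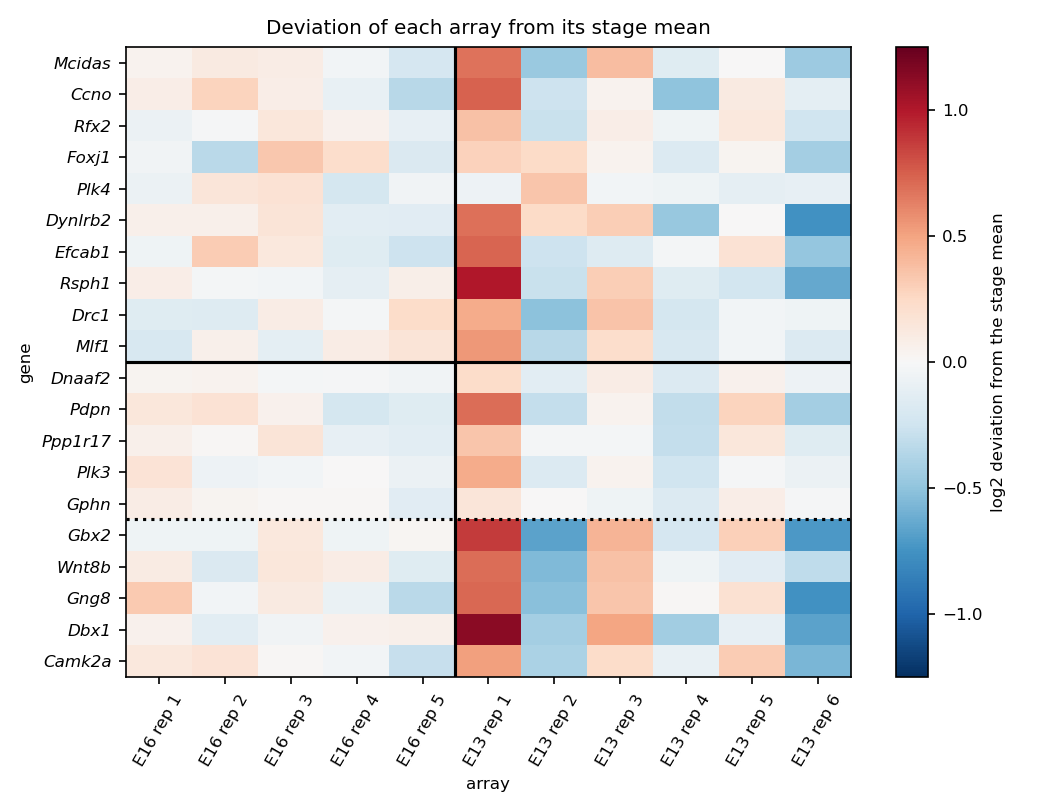
Log2 deviation of each of the 11 arrays (x axis, E16 left of E13) from its stage mean for the 10 genes (top block), the 5 genes most like Ccno (middle) and the 5 most like Mcidas (bottom). E13 replicate 1 is high for 9 of the 10 genes and in both lower blocks.

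Several marker lists of other cells differed between the stages and were highest on E13 replicate 1. Of 13 markers of choroid plexus and cortical hem on the array, the summed level was 186 to 230.8 at E16 and 321.9 to 766.5 at E13, highest on replicate 1, where 10 of the 13 were detected. Among 6 tested, 4 were lower at E16 (beside 14.1% of all tested genes) and none higher. These were Otx2, Wnt8b, Rspo2 and Lmx1a, which differed by -1.52, -0.999, -0.80 and -0.62. Wnt8b, detected on no E16 array, was at least 1.55-fold lower there. Of the markers that define choroid plexus epithelium, Ttr (transthyretin) was detected on 0 of 5 E16 and 3 of 6 E13 arrays and read 7.24 on E13 replicate 1 and 4.64 to 5.45 on the other 5. Folr1 was detected on 0 of 5 and 1 of 6 arrays, and Kl and Kcne2 on none. Clic6, detected on 0 of 5 E16 and 5 of 6 E13 arrays, differed by -0.48 (limma adjusted p = 0.0659). Aqp1 was not lower, being detected on 4 of 5 E16 and 3 of 6 E13 arrays and differing by 0.12 (limma adjusted p = 0.518). Wnt3a and Msx1, which were not tested, were not lower either and differed by 0.12 and 0.03. Wnt3a was detected on 2 of 5 E16 and 1 of 6 E13 arrays, and Msx1 on 1 of 5 and 3 of 6. Wnt2b was detected on no array.

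The 8 Cajal-Retzius cell markers on the array summed to 2706 to 5198 at E16 and 11950 to 18290 at E13, again highest on E13 replicate 1. All 6 tested were lower at E16, with a median difference of -2.74. Beside this and the counts that follow, 14.1% of all tested genes were lower and 13% higher. The 9 interneuron markers summed to 232.4 to 461.3 at E16 and 359.1 to 1163 at E13, highest on E13 replicate 1, and of 5 tested 2 were lower and 1 higher. The 8 radial glia markers went in both directions, with 1 lower (Vim, -1.56), 2 higher (Slc1a3, 2.22, and Fabp7, 0.45) and a median difference of 0.0027. Their summed level was 2070 to 2480 at E16 and 2348 to 3755 at E13, also highest on E13 replicate 1. The 5 red cell markers summed to 611.8 to 2053 at E16 and 62.15 to 815.9 at E13. The part of these cells in the values of the 10 genes was not tested. Without E13 replicate 1, Ccno differed by -3.58 and Mcidas by -1.84. Leaving out this array does not test the part of these cells. The Cajal-Retzius sum and the choroid plexus and hem sum were higher on every E13 array than on any E16 array.

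The known regulators of multiciliation other than the members were taken as a list of their own. Of 14 on the array, 8 were tested, and 0 passed the limma threshold (adjusted p under 0.05) in either direction, with a median difference of -0.11. At an unadjusted p under 0.05, 2 of the 8 were lower and 0 higher in limma. Among the 8 tested, the largest differences were those of Rfx3, another RFX factor (-0.38, limma adjusted p = 0.0816), and E2f5, a partner of multicilin (-0.22, limma adjusted p = 0.0850). Without E16 replicate 3 Rfx3 passed, at -0.48 (limma adjusted p = 0.0353).

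The regulators upstream of Mcidas were near the detection limit. Gmnc (Gemc1) was detected on 0 of 5 E16 and 4 of 6 E13 arrays, and ranged from 4.81 to 4.99 at E16 and from 5.04 to 5.24 at E13. Trp73, which is also a Cajal-Retzius cell marker, was detected on 0 of 5 E16 and 2 of 6 E13 arrays, and ranged from 4.44 to 4.57 at E16 and from 4.84 to 5.34 at E13. Both were therefore below the filter of 5 arrays and were not tested. The E16 arrays were all below the E13 arrays for each, as they were for 8.8% of all tested genes. Gmnn (geminin) was detected on no array, yet it too read lower, at 4.41 to 4.58 at E16 and 4.57 to 4.81 at E13. The differences were -0.54 for Trp73, -0.24 for Gmnc and -0.18 for Gmnn, so that of Trp73 was the largest. As these genes lay near the detection limit and below the filter, their differences are not read as a fall of these regulators.

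The 4 lists of the wider apparatus held 109 genes of centriole assembly, dynein arms, radial spokes and central pair, and other motile cilium genes. Of these, 93 were on the array, and of the 93, 34 were detected on no array and 50 were tested. The limma test found 11 lower (22%, beside 14.1% of all tested genes) and 3 higher (13% of all tested genes were higher) at E16, and the median difference over the 50 was -0.10. Under median centring of the arrays in place of quantile normalization the split was 12 lower and 0 higher, and the split over all tested genes was 1616 lower and 966 higher, against 1495 lower and 1373 higher.

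Among other motile cilium genes, 5 of 10 tested were lower (50%, beside 14.1% of all tested genes) and none higher, with a median of -0.48. Fam183b, a gene known from motile ciliated cells, ranged from 4.94 to 5.59 at E16 and from 5.98 to 7.06 at E13 and differed by -1.20 (limma adjusted p = 0.000237). Tppp3, a tubulin-binding protein, differed by -0.86 (limma adjusted p = 0.0123), and Mns1, an axonemal filament-like protein, by -0.86 (limma adjusted p = 0.0175). Riiad1, with a regulatory-subunit domain, differed by -0.52 (limma adjusted p = 0.0148) and Nme7, of the gamma-tubulin ring complex, by -0.48 (limma adjusted p = 0.0202). Nme7 was named after its value was seen. With the probe of lowest summed detection p in place of the brightest, Nme7 differed by -0.23 (limma adjusted p = 0.0882). Leaving out E16 replicate 1 took Nme7 to a limma adjusted p of 0.0548, and leaving out E16 replicate 3 took Mns1 to 0.0521.

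In the radial spoke, nexin link and central pair list, 2 of 12 tested were lower (16.7%, beside 14.1% of all tested genes) and 1 higher. Nme5, a radial spoke protein, ranged from 5.06 to 5.39 at E16 and from 5.73 to 6.93 at E13, so that the stages were apart, and it differed by -0.996 (limma adjusted p = 0.000599). Ccdc40, part of the molecular ruler of the axoneme, differed by -0.47 (limma adjusted p = 0.0207) and did not pass without E16 replicate 2 (limma adjusted p = 0.0604). Rsph9, a spoke head protein like Rsph1, differed the other way, by 0.36 (limma adjusted p = 0.0277), and did not pass without any of E13 replicates 3, 5 and 6 or E16 replicate 4 (limma adjusted p = 0.0510 to 0.0618) or under median centring (0.0947).

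Of 14 tested genes of dynein arms and their assembly, 2 were lower (14.3%, beside 14.1% of all tested genes) and none higher. At an unadjusted p under 0.05 in limma, 3 were lower and 2 higher, and the median difference was -0.0011. Ccdc151, of the outer arm docking complex, differed by -0.42 (limma adjusted p = 0.0162). Wdr78, an intermediate chain of an inner arm, differed by -0.35 (limma adjusted p = 0.0446), and leaving out any of 8 arrays (E13 replicates 1, 3, 4, 5 and 6, E16 replicates 2, 4 and 5) left it short of the threshold (limma adjusted p up to 0.101). Of the 30 genes of this list on the array, 15 were detected on no array.

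In centriole assembly, where Ccno and Plk4 act, 2 of 14 tested were lower (14.3%, beside 14.1% of all tested genes). Another 2 were higher, beside 13% of all tested genes. Cetn2, a centrin, differed by -0.61 (limma adjusted p = 0.0147), and Ccp110, which caps centrioles, by -0.26 (limma adjusted p = 0.0179). Poc1b, a centriole protein, differed by 0.27 (limma adjusted p = 0.0174) and Cetn3, another centrin, by 0.21 (limma adjusted p = 0.0239), and neither passed under median centring (0.109 for Poc1b and 0.306 for Cetn3). Cetn3 also did not pass without any of E13 replicates 1 and 3 or E16 replicates 2 and 5 (limma adjusted p = 0.0527 to 0.0614). Deup1 and Ccdc78, which serve the deuterosome route of centriole production in multiciliated cells, were detected on no array.

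**Figure D4:**
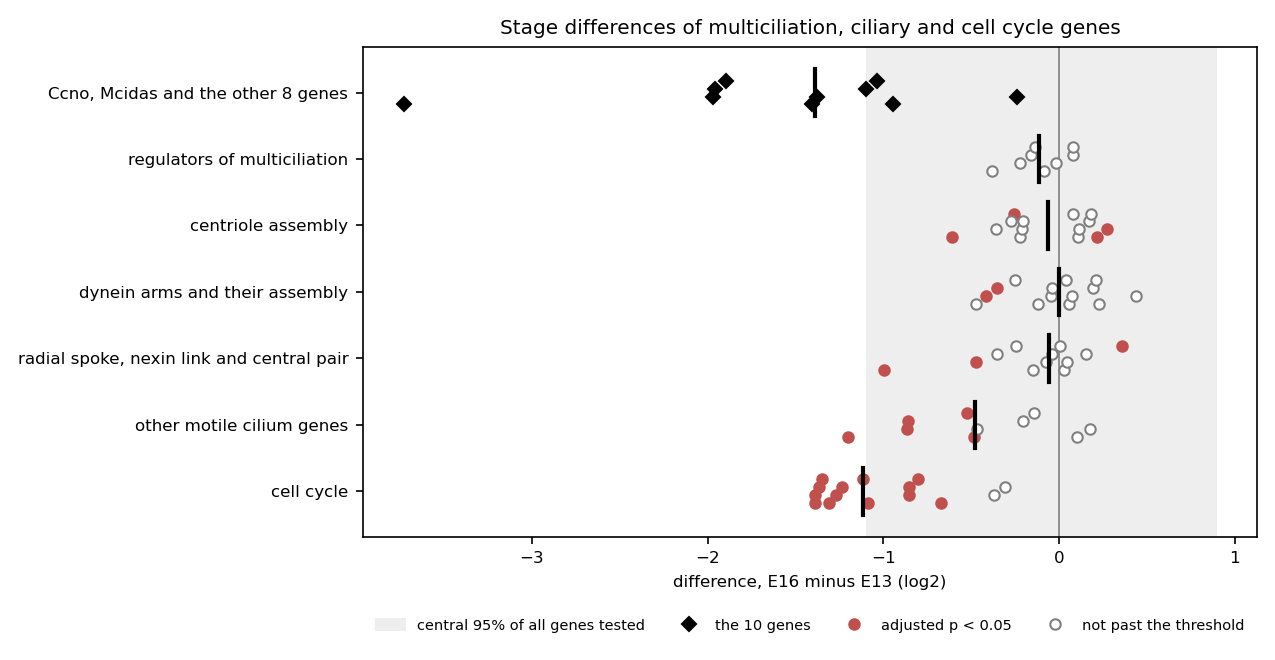
Difference between the stages (E16 minus E13, log2, x axis) of the 10 genes (diamonds) and of every tested gene of 6 lists (circles, red where the limma adjusted p was under 0.05), with list medians as vertical strokes. The grey band spans the central 95% of all tested genes, from -1.09 to 0.895. Ccno lies far to its left at -3.73, and the medians of the 4 ciliary lists lie within it.

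Cell cycle genes are given as a comparison, since Plk4 is a gene of dividing cells. Of 15 tested, 13 were lower at E16 (86.7%, beside 14.1% of all tested genes) and none higher. The median difference was -1.12, beside -1.04 for Plk4 and -1.10 for Rfx2. A link between these values was not tested. Nusap1 (-1.39), Cdc20 (-1.39), Birc5 (-1.37) and Cdk1 (-1.35), which act in mitosis, had the largest differences. The summed level of the 18 genes was 5924 to 7737 at E16 and 13160 to 16770 at E13.

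The RFX arm was then counted over these lists, a step added after the differences had been seen. It was in 39.2% of the 79 wider ciliary genes on the array that had a window. It was in 5 of 7 of those lower at E16, in 11 of 33 of those tested and not lower, in 38.5% of the 39 that were not tested, and in 1 of 16 cell cycle genes.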

How the data were processed

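Sorted basal progenitors were profiled on 11 Illumina bead arrays. Per the labels' protocols, RNA was extracted with mirVana and biotin-labelled with TotalPrep-96. The deposited raw table held linear intensities, some below 0, beside a detection p-value per probe, per the file headers. The authors' deposited log2 value table, in which 3 of the 10 genes had a value for the probe used, served as an alternative. The scanner software is not given in the sources used here.

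Background was corrected by normexp on the detection p-values, with an offset of 16, followed by quantile normalization and log2 (limma 3.58.1, R 4.3.3). Probes with a detection p-value under 0.05 on at least 5 of 11 arrays were kept. The brightest kept probe of each of 10568 genes was tested (lmFit, eBayes with trend, two-sided, Benjamini-Hochberg adjustment, threshold 0.05), and the median SE was 0.126. Every p-value takes the embryos as independent samples, which litter mates may not be. Precision is limited by the number of arrays. Correlations used exact permutation tests (Python 3.11.15). Summed marker levels are sums of normalized linear intensities.

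The members and lists were chosen with earlier results of these data known. Beside the 10 genes, the text names up to 4 genes per list past the threshold with the largest differences (up to 2 where none passed), neighbours and relatives of members, and the 5 genes most like Ccno and Mcidas. Alternatives changed the normalization, background correction, offset, filter, probe rule, variance model, replicate block and the arrays used. Replicate numbers did not pair the stages.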

Additional observations from a re-analysis of the deposited data

Results flagged for a closer look

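Of 100 groups of arrays looked at (43 named genes and 7 marker sums at each stage), 6 had 1 array far from the others by Dixon's criterion, and chance alone flags about 1 in 20. Plk4 was highest on E13 replicate 2, at 8.06 against 7.68 on the next array, a gap of 0.827 of the range of the 6 arrays. The choroid plexus and cortical hem markers had their highest sum on E13 replicate 1, at 766.5 against 459.9, a gap of 0.69 of the range, and this array was also highest for 9 of the 10 multiciliation genes. Mns1 went the other way on that array, at 7.44 against 8.36 on the next E13 array above it (gap 0.795). The basal progenitor markers had their highest sum on E13 replicate 3, at 32690 against 28140 (gap 0.638), and Birc5 was highest there too, at 10.64 against 10.33 (gap 0.772). Plk3, one of the genes most like Ccno, was highest on E16 replicate 1, at 7.73 against 7.56 (gap 0.729). The causes were not tested.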

How the results depend on the processing

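The difference of Ccno was -3.06 without background correction and -2.95 with an offset of 50, against -3.73, and that of Mcidas -1.41 and -1.22, against -1.97, since both settings compress dim values. Leaving out 1 array at a time gave -3.83 to -3.58 for Ccno and -2.06 to -1.84 for Mcidas. In the authors' value table, and with detection p under 0.01 on all 11 arrays, only Mlf1, Rfx2 and Plk4 could be fitted, so the count of the 10 genes lower was 3, fixed by the number left. The median E13 correlation over their 3 pairs was -0.439 and -0.452. In the main setting the same pairs had r of 0.9 (Mlf1 and Rfx2), -0.452 (Mlf1 and Plk4) and -0.501 (Rfx2 and Plk4). These medians therefore reflect the genes left and cannot be set against the 0.73 over 45 pairs. Over the 45 pairs, leaving out 1 E13 array gave 0.433 to 0.842. In the wider ciliary lists, 10 to 12 genes were lower and 2 to 3 higher with 1 array left out, 0 were higher under median centring and 6 of 29 tested were lower with the stricter detection. Over all tested genes, leaving out 1 array gave 1298 to 1509 lower and 1178 to 1348 higher. Without a detection filter Trp73 (-0.54, limma adjusted p = 0.000387) and Gmnn (-0.18, limma adjusted p = 0.0349) passed as lower, although Gmnn was detected on no array. Replicate numbers share no stated litter, and deviations of same-numbered arrays correlated between -0.1 and 0.143, with 1 of 5 E16 arrays closest to the E13 array of its number. With replicate number as a block, Ccno differed by -3.76, Mcidas by -2.06, 8 wider ciliary genes were lower and 2 higher, and 1293 genes were lower and 1161 higher over all. Signals near the detection limit (Ccno, Mcidas, Foxj1, Dynlrb2, Efcab1, Rsph1 and Drc1 at E16) leave the size of those differences as bounds or compressed values.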
